A study of Bos taurus with 30 samples.

Results

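The genes described here are 43 bovine genes for matrix glycoproteins, proteoglycans and collagen-processing proteins, chosen by gene name from the 27607 genes of the count tables. Each name matched 1 protein-coding gene, and the rule that picks them uses names and no measured value. By role, 16 are fibronectin or elastic fiber genes, 7 are small leucine-rich proteoglycans, 2 are large proteoglycans, 4 are basement membrane glycoproteins, 8 are matricellular or other glycoproteins and 6 act on collagen. RNA was sequenced from 30 libraries of an endometrium-on-a-chip, 15 of epithelial and 15 of stromal cells, with 3 libraries for each of 10 groups. The cells were primary cultures of bovine endometrium, from nonpregnant uteri whose corpus luteum placed them early in the luteal phase, with stromal-enriched cells under a porous membrane in the lower chamber and epithelial cells above it, and both were exposed to the medium under flow for 72 hours. The glucose experiment held 12 libraries, 6 of each cell type, at 5 or 50 mM glucose. The insulin experiment held 18 libraries, 9 of each cell type, with vehicle (acetic acid in phosphate-buffered saline), 1 or 10 ng/mL insulin, all at 5 mM glucose. The labels do not say which animals gave the cells of each library. Both cell types were separated by straining and by plating time rather than sorted on a surface marker. The study's flow cytometry found most epithelial cells positive for a keratin and most stromal cells positive for vimentin. Some stromal cells also stained with the secondary antibody alone. Each population was thus enriched and not fully pure.

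The extracellular matrix is the network of fibers and gels that cells secrete and attach to. Collagen and elastic fibers give it strength and recoil, fibronectin links cells to the fibers, and proteoglycans carry sugar chains that bind water and growth factors. Matricellular proteins such as thrombospondins and tenascin act on cells rather than bear load, and a basement membrane separates an epithelium from its stroma. In the uterus this matrix is remodeled over the cycle and around implantation, and fibroblasts of the stroma are known as its main source.

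Library totals ran from 13493503 to 16647701 counts in the glucose experiment and from 8826470 to 13214728 in the insulin experiment, and levels are given as CPM, the count of a gene scaled to a common library total. At these totals 3 counts correspond to 0.180 to 0.340 CPM. The epithelial libraries held 9071 to 17833 CPM summed over 20 epithelial markers (keratins, EPCAM, claudins), and the stromal libraries held 2997 to 7236 CPM summed over 17 stromal markers (VIM, PDGFRA, HAND2 and others). No marker of either list was at 0 in all 15 libraries of the opposite layer, although ESRP1 was at 0 in 8 and EPCAM in 5 stromal libraries. The summed epithelial markers of the stromal libraries were 19.2 to 398 CPM in the insulin experiment and 98.8 to 6163 CPM in the glucose experiment, with the highest value in replicate 3 at 50 mM glucose, which also had the lowest stromal marker sum. Among the epithelial libraries, replicate 2 at 5 mM glucose stood apart with the highest epithelial marker sum. The smooth muscle and pericyte list of 10 genes summed to 111 to 882 CPM in epithelial libraries against 1729 to 9085 CPM in the stromal ones, while 7 endothelial markers reached 109 CPM and 4 immune markers 428 CPM at most, nearly all of the latter LCP1. Results that rest on either library standing apart are given with and without it. In these bulk libraries, fewer cells of a type and less RNA per cell cannot be told apart.

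The 43 genes together took 3.87% to 5.56% of all counts in the epithelial libraries (median 4.40%, n = 15) and 5.22% to 9.20% in the stromal libraries (median 8.32%, n = 15). The lowest stromal share was that of replicate 3 at 50 mM glucose, and the next lowest was 6.61%, above every epithelial share. In the epithelial libraries most of it came from a pair of genes, as FN1 took 29.7% to 64.7% (median 58.1%) and THBS1 26.4% to 51.4% (median 34.4%) of the counts of the 43 genes. Summed by role, the small leucine-rich proteoglycans did not overlap between the layers, at 23.5 to 394 CPM for the epithelial libraries against 1338 to 4704 CPM for the stromal ones. The basement membrane glycoproteins summed to 54.2 to 570.5 CPM against 2238 to 5916 CPM, and the collagen-processing genes to 531 to 905 CPM against 2152 to 4735 CPM, again without overlap. Of the fibronectin and elastic fiber group the epithelial sum was 13707 to 35516 CPM and the stromal sum 14635 to 29164 CPM, and of the matricellular group the sums were 12395 to 27870 CPM and 20577 to 57556 CPM, so both overlapped. The large proteoglycans overlapped as well, at 743 to 3076 CPM against 2297 to 4376 CPM.

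**Figure D1:**
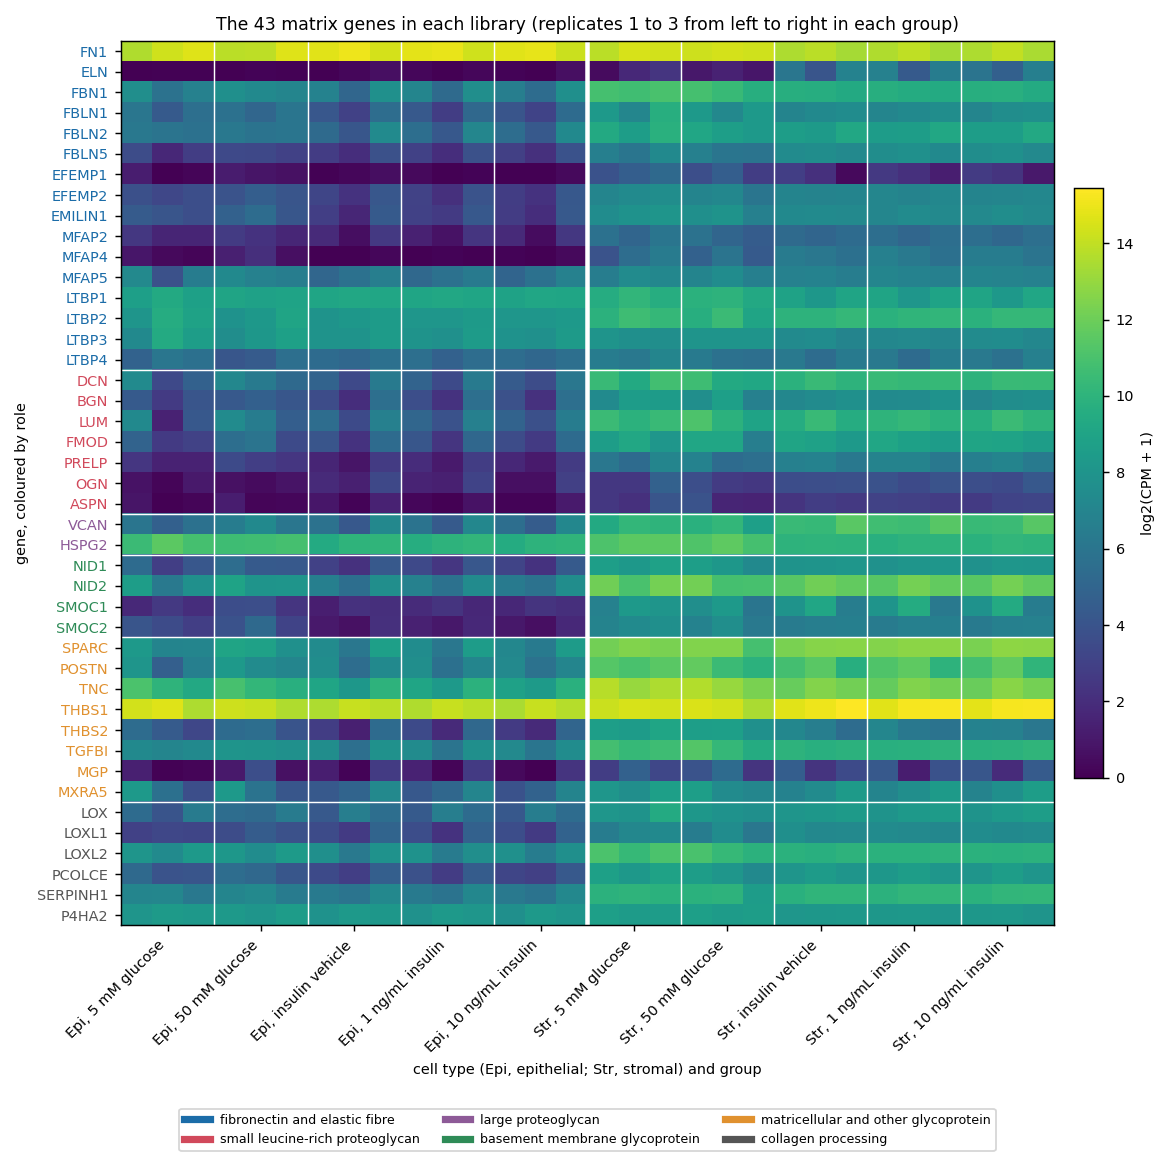
Level of each of the 43 genes (rows, colored by role) in each of the 30 libraries (columns, 3 replicates per group), as log2(CPM + 1). Most rows are darker in the 15 epithelial libraries on the left, while FN1, HSPG2, THBS1, LTBP1, LTBP3 and P4HA2 have similar shades on both sides. CPM is not corrected for gene length, so shades compare libraries within a row.

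The first comparison asked which matrix genes separate the stromal from the epithelial layer. In 28 of the 43 genes, every one of the 15 stromal libraries was above every epithelial library, no gene showed the reverse, and 15 overlapped. Of the genes tested in the vehicle group, 28 of 42 members separated the layers in this way, beside 7.84% of the 12876 protein-coding genes tested there. With the vehicle of the insulin experiment, 36 of 42 members tested were called higher in stromal cells, beside 27.8% of all protein-coding genes, and 2 were called higher in epithelial cells, beside 28.2%. A call here means an adjusted p under 0.05 and a log2 fold change beyond 0.1 in either direction, in edgeR's quasi-likelihood test with the replicate number as a block and Benjamini-Hochberg adjustment over all genes tested. Libraries of the same replicate number are called a pair. The median log2 fold change, stromal over epithelial, was 3.52 for the members and 0.00 for all protein-coding genes. Without replicate 1 the count fell to 24 members, all higher in stromal cells, while of all protein-coding genes 2485 were then called higher and 2584 lower, from 3574 and 3626.

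The same comparison gave like counts in the other groups. At 1 ng/mL insulin, 38 of 43 members were called higher in stromal cells (29.5% of all genes) and 2 in epithelial cells (29.9%). At 10 ng/mL, 37 were called higher in stromal cells (27.6%) and 1 in epithelial cells (27.3%). In the glucose experiment, 33 of 42 members at 5 mM (10.7%) and 34 of 43 at 50 mM (11%) were called higher in stromal cells, and none in epithelial cells, where 10.8% and 6.57% of all genes were called. At 50 mM glucose no member and no other protein-coding gene was called without replicate 1. The members' median log2 fold change there stayed between 2.87 and 3.22 whichever replicate was left out. The medians over the members were 3.81, 3.75, 4.23 and 3.07 in these 4 groups, in the order given. Over the 5 groups, 30 members were called higher in stromal cells every time, 9 in some groups, 2 (HSPG2 and P4HA2) were never called, and 2 (FN1 and LTBP3) were called higher in epithelial cells only in the insulin experiment. Of all genes tested at 5 mM glucose, no more than the 10.7% called there can have been called every time.

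Among the fibronectin and elastic fiber genes, the vehicle comparison called 12 of 15 tested higher in stromal cells. FBN1, which encodes the fibrillin of elastic microfibrils, was at 114, 32.9 and 212 CPM in epithelial and 834, 781 and 664 CPM in stromal cells with vehicle (log2 fold change 3.08 ± 0.61 (SE), adjusted p = 0.0127). The fibulins FBLN1, FBLN2 and FBLN5, which tie elastic fibers to cells and other matrix, differed by 3.16, 3.22 and 4.79 on the log2 scale. EMILIN1 and EFEMP2, which assist elastic fiber assembly, differed by 4.51 and 3.92. All 5 of these were called, and their stromal libraries were above every epithelial library of both experiments. MFAP4, a microfibril-associated glycoprotein, had 86.0, 69.4 and 50.2 CPM in stromal cells and only 2 counts over the 3 epithelial vehicle libraries. The ratio of its summed counts, scaled by the summed library totals, was 1155, with a counting interval (exact, 95%) of 319 to 9542. MFAP2, of the same microfibrils, differed by 4.0 on the log2 scale and separated the layers in all libraries. MFAP5 was closer between them, at 33.2, 52.8 and 94.2 CPM in epithelial and 108, 116 and 90.4 CPM in stromal vehicle libraries (1.01 ± 0.32 (SE), adjusted p = 0.0488), and was not called in either glucose group.

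ELN, which encodes elastin itself, was measured in stromal cells of the insulin experiment at 65.5, 16.0 and 114 CPM with vehicle, against 0, 0.207 and 0.563 CPM in epithelial cells (8 counts in all). The ratio of summed counts, scaled by the summed library totals, was 258 (exact 95% counting interval 130 to 597). In the glucose experiment the stromal libraries had 0.391, 2.39 and 4.15 CPM at 5 mM and 1.00, 1.84 and 0.897 CPM at 50 mM. It was too low to test at 5 mM, where the counts were 2 in epithelial and 112 in stromal cells (ratio 50.7, exact 95% counting interval 13.7 to 424). Every stromal library of the insulin experiment, 16.0 to 114 CPM, was above every stromal library of the glucose experiment, although both experiments had groups at 5 mM glucose. EFEMP1, a glycoprotein of the fibulin family, went the other way with a slight overlap, at 6.08 to 37.1 CPM in the stromal glucose libraries and 0.325 to 6.21 CPM in the stromal insulin libraries. It was too low to test with vehicle, where its counts were 8 in epithelial and 111 in stromal cells (ratio 14.5, exact 95% counting interval 7.10 to 34.4). Anything else that differed between the experiments cannot be told apart from the experiment itself.

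The genes named for latent TGF-beta binding proteins divided by member. LTBP2 was higher in stromal cells at 241, 285 and 352 CPM against 996, 1003 and 1234 CPM (1.97 ± 0.12 (SE), adjusted p = 0.000978), and LTBP4 by a smaller margin at 41.4, 34.8 and 50.7 CPM against 75.0, 42.5 and 79.4 CPM (0.68 ± 0.13 (SE), adjusted p = 0.0109). LTBP3 was lower in stromal cells in every vehicle pair, at 239, 244 and 349 CPM in epithelial and 166, 183 and 122 CPM in stromal cells (-0.74 ± 0.22 (SE), adjusted p = 0.0434). LTBP1 was lower in all 3 stromal libraries with vehicle, at 532, 613 and 553 CPM in epithelial and 484, 289.5 and 509 CPM in stromal cells, but missed the threshold (-0.37 ± 0.24 (SE), adjusted p = 0.245). Its only call was at 50 mM glucose, higher in stromal cells (0.94 ± 0.23 (SE), adjusted p = 0.0484). For LTBP3 the log2 fold change at 5 mM glucose was -0.49 ± 0.56 (SE), with leave-one-out values from -1.17 to 0.09, so its order there was not settled.

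FN1, which encodes fibronectin, was the other member called higher in epithelial cells. Its levels with vehicle were 27945, 34220 and 21851 CPM in epithelial and 12014, 14536 and 10506 CPM in stromal cells, and every epithelial library was above every stromal one. The log2 fold change was -1.09 ± 0.20 (SE), adjusted p = 0.00987. The difference was called at 1 ng/mL (-0.94, adjusted p = 0.00998) and 10 ng/mL insulin (-0.84, adjusted p = 0.0288) as well. In the glucose experiment the layers overlapped, with 12295, 20290 and 26793 CPM in epithelial and 14870, 23223 and 21727 CPM in stromal cells at 5 mM (0.27 ± 0.41 (SE), adjusted p = 0.701). Stromal FN1 was 14870 to 23223 CPM in the glucose experiment and 10506 to 16541 CPM in the insulin experiment, a small overlap. At 50 mM the log2 fold change was 0.34 ± 0.32 (SE), adjusted p = 0.496.

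**Figure D2:**
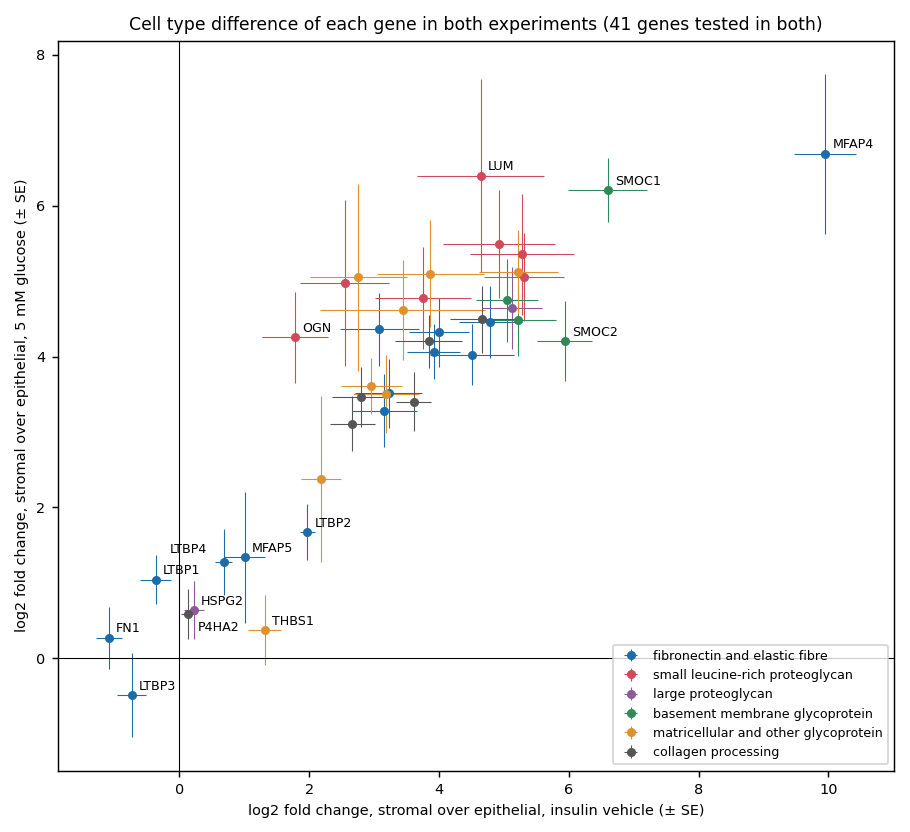
Log2 fold change, stromal over epithelial, of the 41 genes tested in both experiments, with vehicle (x axis) and at 5 mM glucose (y axis), with bars of 1 SE. Most genes lie between 2 and 6 on both axes, and FN1, LTBP3, LTBP1, HSPG2, P4HA2 and THBS1 lie near or across 0 on at least 1 axis. The value of MFAP4 with vehicle rests on 2 epithelial counts.

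The 7 small leucine-rich proteoglycans, which bind collagen fibrils and set their spacing, were called higher in stromal cells in all 5 groups. Of all genes tested at 5 mM glucose, at most 10.7% can have been. DCN (decorin) was at 28.5, 9.61 and 81.8 CPM in epithelial and 931, 1382 and 1000.0 CPM in stromal cells with vehicle (5.27 ± 0.80 (SE), adjusted p = 0.00588). LUM (lumican) was at 44.6, 9.92 and 103 CPM and 767, 1427 and 755 CPM (4.64 ± 0.97 (SE), adjusted p = 0.015). No library of one layer reached the other, and the epithelial values of both genes moved together, lowest in replicate 2 and highest in replicate 3. FMOD and PRELP differed by 4.92 and 5.30 on the log2 scale and BGN (biglycan) by 3.75. OGN and ASPN were low in every library, with at most 26.7 CPM for OGN and 15.5 CPM for ASPN, and they had the smallest differences of this group with vehicle (1.78 and 2.54). OGN was at 2.59, 1.55 and 9.38 CPM in epithelial and 11.5, 12.1 and 12.4 CPM in stromal cells with vehicle, without overlap in this group (adjusted p = 0.0358).

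Of the large proteoglycans, VCAN (versican), which forms hyaluronan-rich gels, was at 54.3, 18.4 and 145 CPM in epithelial and 1408, 1322 and 2924 CPM in stromal cells with vehicle (5.12 ± 0.46 (SE), adjusted p = 0.0017). HSPG2, which encodes perlecan, a basement membrane proteoglycan, did not separate the layers, at 688, 1064 and 1077 CPM and 1013, 1041 and 1010 CPM (0.22 ± 0.15 (SE), adjusted p = 0.262). The other basement membrane genes did. NID1 and NID2, the nidogens that bridge laminin and collagen networks, differed by 5.05 and 5.21 on the log2 scale. SMOC1 was at 1.41, 3.62 and 3.19 CPM in epithelial and 247, 565 and 90.7 CPM in stromal cells (6.60 ± 0.61 (SE), adjusted p = 0.00181). Its stromal level followed the replicate number at every insulin dose, with 565 to 716 CPM in replicate 2, 235 to 257 CPM in replicate 1 and 74.2 to 90.7 CPM in replicate 3. SMOC2, its close relative, differed by 5.94 ± 0.42 (SE), adjusted p = 0.0012.

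Among the matricellular and other glycoproteins, SPARC, a collagen-binding protein, was at 171, 68.0 and 412 CPM in epithelial and 5257, 6431 and 6607 CPM in stromal cells with vehicle (5.22 ± 0.60 (SE), adjusted p = 0.00289). TNC (tenascin C) differed by 3.18 ± 0.50 (SE), POSTN (periostin) by 3.87 ± 0.83 (SE) and TGFBI by 2.96 ± 0.47 (SE), all called. THBS1, the thrombospondin that can release latent TGF-beta, was the gene of this group with the smallest difference, at 12117, 17859 and 14646 CPM against 27097, 34361 and 44328 CPM (1.31 ± 0.25 (SE), adjusted p = 0.011). In the glucose experiment THBS1 overlapped between the layers and was not called (0.37 at 5 mM and 0.28 at 50 mM). Its relative THBS2 missed the threshold with vehicle (3.44 ± 1.27 (SE), adjusted p = 0.0759), where epithelial replicates spread from 1.55 to 40.3 CPM, and was called in the other 4 groups. MXRA5 was called in the 3 insulin groups and not in the glucose groups, where epithelial replicates at 5 mM ran from 12.3 to 314 CPM. MGP, an inhibitor of calcification, was low in every library, from 0 to 12.1 CPM in epithelial and from 1.36 to 41.4 CPM in stromal cells.

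Of the 6 collagen-processing genes, 5 were called higher in stromal cells in all 5 groups, beside at most 10.7% of all genes tested at 5 mM glucose. SERPINH1, the collagen chaperone, was at 78.1, 61.2 and 146 CPM in epithelial and 903, 1076 and 1114 CPM in stromal cells with vehicle (3.61 ± 0.27 (SE), adjusted p = 0.0013). PCOLCE, which enhances procollagen cleavage, differed by 4.67 on the log2 scale. The lysyl oxidases LOX, LOXL1 and LOXL2, which cross-link collagen and elastin, differed by 2.80, 3.84 and 2.66. P4HA2, a subunit of the prolyl hydroxylase of collagen, was the exception, at 231, 313 and 289 CPM and 280.2, 287 and 294 CPM (0.14 ± 0.12 (SE), adjusted p = 0.352). Its largest log2 fold change in any group was 0.58 ± 0.33 (SE), at 5 mM glucose.

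For reference, of 12 collagen genes all 12 were called higher in stromal cells with vehicle (median log2 fold change 4.0). Of 22 other collagen-processing genes 14 were called higher and 2 lower (median 1.19), among them P3H1 at 2.11 and LOXL3 at 3.60. Of 33 other matrix glycoproteins and proteoglycans tested, 16 were called higher in stromal cells and 9 in epithelial cells (median 1.00). AGRN, a basement membrane proteoglycan like HSPG2, was on the epithelial side at -4.47, and SVEP1 on the stromal side at 6.56. At 5 mM glucose the counts were 11 of 12 collagens, 14 of 22 processing genes, and 15 higher and 4 lower of 37 other genes.

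**Figure D3:**
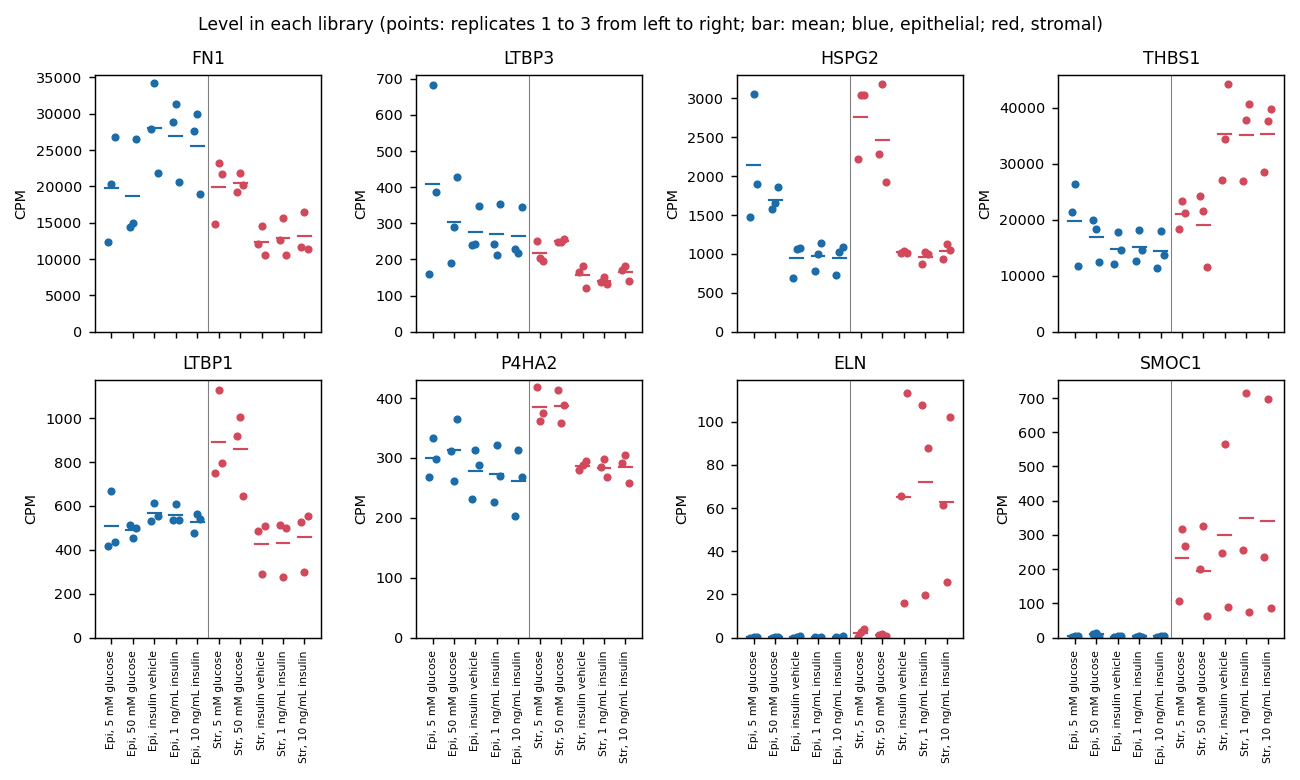
CPM of 8 genes in each library, by cell type and group, with 3 replicates as points and the group mean as a bar. FN1, LTBP3, HSPG2, THBS1, LTBP1 and P4HA2 are at like levels in both layers in at least 1 experiment, ELN is near 0 in the stromal cells of the glucose experiment, and stromal SMOC1 spreads widely within each group.

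The vehicle group and the 5 mM glucose group had the same glucose concentration, so the stromal to epithelial gap was compared between the experiments, as a comparison added after the values had been seen. No member was called by edgeR's quasi-likelihood test, beside 0% of 13659 protein-coding genes, and 4 had an unadjusted p under 0.05, beside 10.4%. The signed log2 fold change, stromal over epithelial, of LTBP1 was higher at 5 mM glucose than with vehicle by 1.40 ± 0.37 (SE), adjusted p = 0.362. That of FN1 was higher by 1.35 ± 0.40 (SE), adjusted p = 0.387, going from -1.09 to 0.27 and so closer to 0. OGN differed by 2.38 ± 0.83 (SE), adjusted p = 0.429 in the same direction and SMOC2 by -1.86 ± 0.73 (SE), adjusted p = 0.458 in the other. With DESeq2, FN1 (1.37, adjusted p = 0.00771) and LTBP1 (1.41, adjusted p = 0.0374) were called, where 109 protein-coding genes were called higher and 69 lower. The median over the members was 0.27, with leave-one-out values from -0.54 to 0.75.

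The second question was whether 50 mM glucose changed the matrix genes. In epithelial cells no member was called by edgeR or by DESeq2, and the same held for all protein-coding genes (0% of 13055). ELN, OGN and ASPN were too low to test, with at most 2, 16 and 22 counts in a library. Of 40 members tested, 33 had a log2 fold change above 0, with a median of 0.63, where 50.5% of all genes were above 0 and their median was 0.01. At an unadjusted p under 0.05, 6 members were higher at 50 mM, beside 0.789% of all genes, and none was lower. These were MFAP4, PRELP, SMOC1, SPARC, TGFBI and LOXL1. PRELP was at 4.52, 1.78 and 1.78 CPM at 5 mM and 9.85, 6.19 and 4.49 CPM at 50 mM, higher in every pair, with overlapping groups (1.41 ± 0.31 (SE), adjusted p = 0.804). MFAP4 was at 0.931, 0.296 and 0.137 CPM and 1.53, 3.24 and 0.562 CPM (1.93 ± 0.65 (SE), adjusted p = 0.804), values that are near the limit of 3 counts in several libraries.

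The highest log2 fold changes in epithelial cells were those of MGP (2.36 ± 1.45 (SE)), MFAP4, LUM (1.62 ± 1.13 (SE)), FMOD (1.52 ± 0.66 (SE)) and PRELP. The size of several rested on replicate 2 at 5 mM, the library with the highest epithelial marker sum. LUM was at 158, 1.78 and 18.0 CPM at 5 mM and 176, 87.0 and 23.9 CPM at 50 mM, so that the difference was large in replicate 2 alone, and without this pair its log2 fold change was 0.30. For MGP, at 1.60, 0.0741 and 0.137 CPM and 1.10, 12.1 and 0.632 CPM, the value without replicate 2 was 0.12. The lowest values were those of LTBP4 (-0.81 ± 0.38 (SE)), LTBP2 (-0.44 ± 0.35 (SE)), HSPG2 (-0.27 ± 0.29 (SE)), LTBP3 (-0.26 ± 0.37 (SE)) and THBS1 (-0.17 ± 0.27 (SE)). All but LTBP4 changed sign without replicate 2, to 0.015, 0.07, 0.24 and 0.04 in the same order, as did FN1 (-0.07 against 0.14). LTBP4 was lower at 50 mM in every pair, at 27.5, 67.0 and 50.1 CPM against 16.7, 20.6 and 49.0 CPM (adjusted p = 0.804), with overlapping groups.

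Without replicate 2 the median over the members was 0.20, and 9 members were called higher at 50 mM, where 85 protein-coding genes were called higher and 133 lower. These were PRELP (1.24), SMOC1 (1.46), SPARC (0.72), LOXL1 (0.68), FMOD (0.65), TGFBI (0.60), VCAN (0.43), NID2 (0.38) and POSTN (0.36), on the log2 scale. SPARC was at 327, 126 and 128 CPM at 5 mM and 509.7, 463 and 211 CPM at 50 mM, higher in each of the 3 pairs, and TGFBI at 156, 132 and 157 CPM and 258, 239 and 209.7 CPM, with no overlap. Stromal markers lay on the same side. All 14 stromal markers tested in epithelial cells had log2 fold changes above 0 (median 0.68, and 0.23 without replicate 2), and their sum was 1264, 1090 and 565 CPM at 5 mM and 1345, 1254 and 713 CPM at 50 mM. Without replicate 2, 12 of 15 stromal markers tested were above 0. Epithelial markers were above 0 in 6 of 20 (median -0.16), and without replicate 2 in 15 of 20 (median 0.14). Of 9 smooth muscle and pericyte markers, 5 had an unadjusted p under 0.05 and were higher (median 0.66), and of the 12 collagens 11 were above 0 (median 0.63). Without replicate 2, 5 of 9 smooth muscle and pericyte markers (median 0.60) and 7 of 12 collagens (median 0.45) were called higher. In the same fit 1 of 20 epithelial and 1 of 15 stromal markers were called higher. The part of any of these marker lists in the members' result was not tested.

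In stromal cells the members lay the other way. None was called by edgeR (0% of 13035 genes) or by DESeq2, which called 171 genes higher and 2 lower, and none had an unadjusted p under 0.05 in edgeR (4.96% of all genes did). Of the 43 members 2 had a log2 fold change above 0, where 46.0% of all genes did. The median was -0.49 for the members and -0.03 for all genes. The lowest values were those of EFEMP1 (-0.95 ± 0.63 (SE)), ASPN (-0.76 ± 1.10 (SE)), LTBP4 (-0.72 ± 0.32 (SE)), EFEMP2 (-0.69 ± 0.38 (SE)) and PCOLCE (-0.67 ± 0.38 (SE)). The highest were MGP (0.23 ± 0.54 (SE)), LTBP3 (0.15 ± 0.11 (SE)), FN1 (-0.0042), MFAP5 (-0.05) and P4HA2 (-0.06). LTBP4 was lower in each pair, at 87.6, 71.6 and 129 CPM at 5 mM and 79.7, 52.9 and 48.6 CPM at 50 mM. The groups overlapped. LTBP4 was thus below 0 in both layers, with neither value passing the threshold.

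The stromal shift rested on replicate 3 at 50 mM, the library with 6163 CPM of epithelial markers. SPARC was at 4579, 5835 and 5197 CPM at 5 mM and 5809, 5936 and 1890 CPM at 50 mM, and PCOLCE at 432, 306 and 480.0 CPM and 393, 279 and 160.4 CPM, so that the third pair differed most. Without replicate 3 the median over the members was 0.05, and LTBP4 (-0.31), EFEMP2 (-0.19), PCOLCE (-0.16) and EFEMP1 (-0.14) were nearer 0, while ASPN (0.68) and MFAP5 (0.23) changed sign. FN1 changed sign under several alternatives, MFAP5 and P4HA2 with library totals alone, and MGP without replicate 1 (-0.31). All 20 epithelial markers had log2 fold changes above 0 at 50 mM in stromal cells (median 4.65, and 2.09 without replicate 3), the stromal markers had a median of -0.51 (-0.08 without replicate 3), and the part of either in the members' result was not tested.

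**Figure D4:**
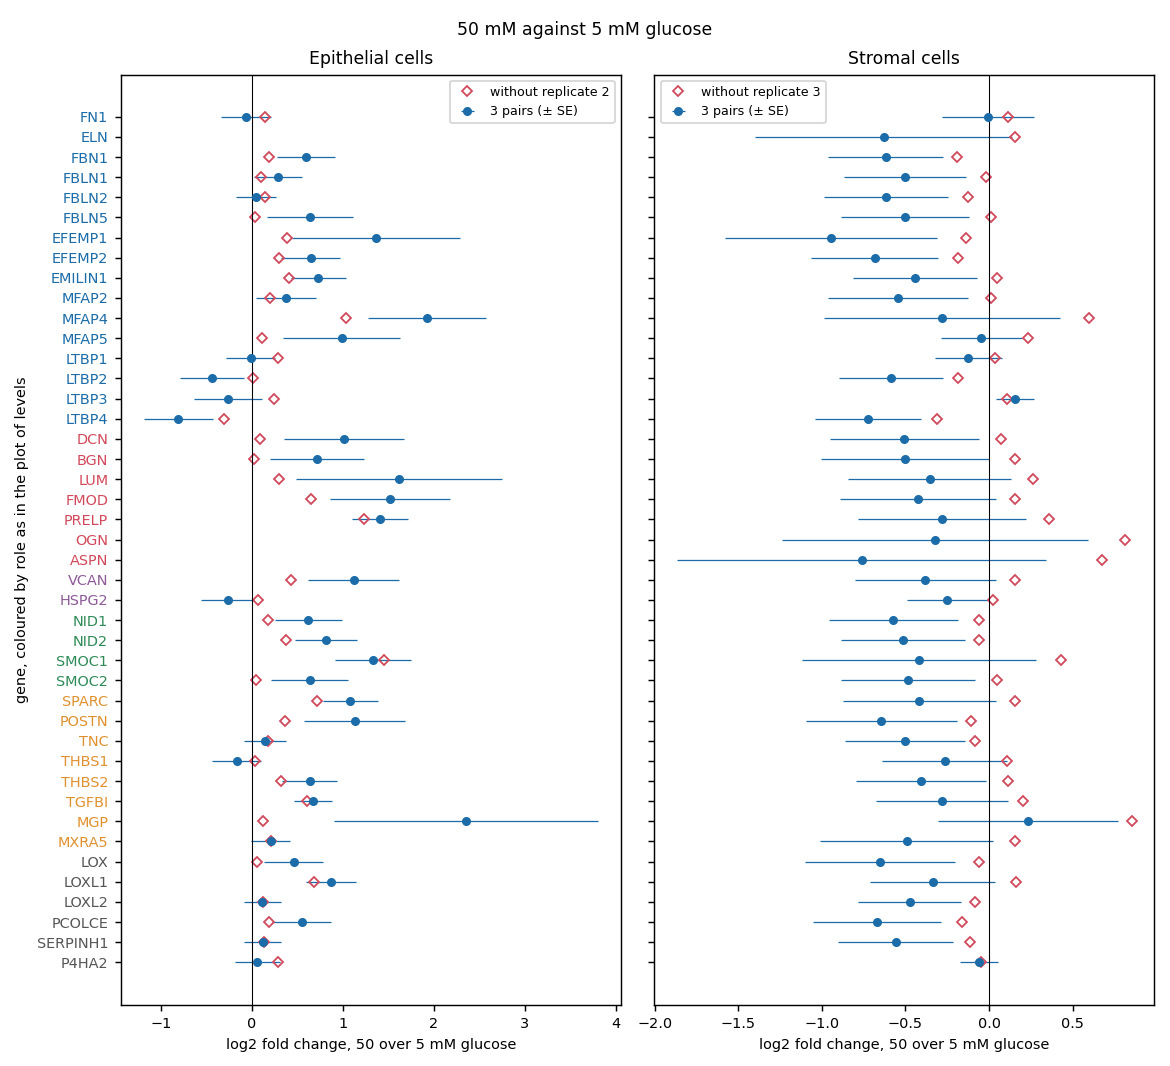
Log2 fold change, 50 over 5 mM glucose, of each gene tested, in epithelial (left) and stromal cells (right), with all 3 pairs (filled, bars of 1 SE) and without the pair that holds the library standing apart (open). The members' median is 0.63 and 0.20 on the left, and -0.49 and 0.05 on the right.

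The glucose effects of the 2 layers were compared in 1 model. No member was called by edgeR or DESeq2, where edgeR called 0% of 13851 genes and DESeq2 240 higher and 6 lower, and 4 members had an unadjusted p under 0.05, beside 7.65%. These were PRELP (-1.68 ± 0.61 (SE), adjusted p = 0.64), EFEMP2 (-1.32 ± 0.53 (SE), adjusted p = 0.654), LOXL1 (-1.20 ± 0.48 (SE), adjusted p = 0.654) and SPARC (-1.49 ± 0.61 (SE), adjusted p = 0.656), given as the stromal minus the epithelial effect. The difference for FN1 was 0.07 ± 0.42 (SE). The median over the 43 members was -1.12, with leave-one-out values from -1.67 to -0.75, and 4 members were above 0. Each of these fits left out the same replicate number in both layers, so none left out both libraries standing apart. Within the layers, the members' medians without those libraries were 0.20 in epithelial and 0.05 in stromal cells, so the difference without both was not tested.

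The third question was the response to insulin, and here differences were small. As run here, DESeq2 called no member in any insulin comparison within a cell type. The paper's own paired DESeq2 run differed for FN1. It lists FN1 among the transcripts altered in epithelial cells at 10 ng/mL, with a cut-off of P under 0.05. At 1 ng/mL in epithelial cells no member was called (0% of 12464 genes), none had an unadjusted p under 0.05 (2.87% of genes) and the median log2 fold change was -0.02. The log2 fold change of FN1 was -0.06 ± 0.045 (SE). Members too low to test were ELN, EFEMP1, MFAP4 and ASPN, with at most 6, 5, 3 and 19 counts in any epithelial library of this experiment. At 10 ng/mL no member was called either, where 0.113% of 12373 genes were, but 12 of 39 members tested had an unadjusted p under 0.05 and a lower level, beside 3.59% of all genes. No member was higher at that limit. The median was -0.07, and 10 members were above 0. FN1 was at 27945, 34220 and 21851 CPM with vehicle and 27691, 29955 and 19006 CPM at 10 ng/mL, lower in each pair (-0.14 ± 0.041 (SE), adjusted p = 0.259). MXRA5, a matrix remodeling glycoprotein, was at 18.7, 30.1 and 155 CPM and 13.8, 28.3 and 126 CPM, lower in each pair (-0.27 ± 0.065 (SE), adjusted p = 0.0964). The pairs of both genes lay far apart, and the groups overlapped.

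Of the small leucine-rich proteoglycans, 3 were among the 5 members with the smallest p. OGN was at 2.59, 1.55 and 9.38 CPM with vehicle and 0.557, 0.566 and 6.72 CPM at 10 ng/mL (-0.83 ± 0.25 (SE), adjusted p = 0.291), DCN at 28.5, 9.61 and 81.8 CPM and 20.2, 10.9 and 69.2 CPM (-0.26 ± 0.084 (SE), adjusted p = 0.396), and LUM at 44.6, 9.92 and 103 CPM and 29.7, 12.3 and 88.5 CPM (-0.28 ± 0.082 (SE), adjusted p = 0.285). OGN was lower in every pair, while DCN and LUM were lower in pairs 1 and 3 and somewhat higher in pair 2. The other 7 were LTBP1, SPARC, POSTN, TGFBI, MGP, PCOLCE and P4HA2. With every gene of at least 1 count kept in the test, FN1, MXRA5, LUM and OGN were called lower, where 24 of 15439 protein-coding genes were called lower and 17 higher. Without replicate 2, 7 members were called lower, among them POSTN (-0.30) and TGFBI (-0.30), of 42 genes lower and 26 higher among 12680. Without replicate 1, FN1 was the only member called, where 16 of 12610 genes were lower and 16 higher. The summed stromal markers were 852, 726 and 1005 CPM with vehicle and 766, 705 and 902 CPM at 10 ng/mL. Of 13 stromal markers tested 2 had an unadjusted p under 0.05 and were lower (median 0.01), and of 9 smooth muscle and pericyte markers 5 did (median -0.22). Their part in the members' result was not tested.

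Between 10 and 1 ng/mL in epithelial cells no member was called (0% of 12396 genes), and 8 had an unadjusted p under 0.05 and a lower level, beside 2.23% of genes. The 5 with the smallest p were FN1 (-0.08 ± 0.027 (SE), adjusted p = 0.983), THBS1 (-0.08), LUM (-0.21), DCN (-0.26) and MXRA5 (-0.19), all with an adjusted p of 0.983. The comparisons of 10 ng/mL with vehicle and with 1 ng/mL share the 10 ng/mL libraries.

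In stromal cells the members' values were on the other side of 0. At 1 ng/mL no member was called (0% of 12228 genes), 8 had an unadjusted p under 0.05 and a higher level, beside 2.1% of all genes, and the median was 0.09. At 10 ng/mL no member was called (0% of 12290 genes), 9 had an unadjusted p under 0.05 and a higher level, beside 1.72%, and none was lower. There 41 of 43 members had a log2 fold change above 0, where 49.5% of all genes did, and the median was 0.08. POSTN was at 1791, 2922 and 820.3 CPM with vehicle, 2361, 3078 and 991 CPM at 1 ng/mL and 1840, 3384 and 1114 CPM at 10 ng/mL. It was higher in each pair at both doses (0.28 ± 0.074 (SE), adjusted p = 0.686 and 0.24 ± 0.083 (SE), adjusted p = 0.999), within groups that overlapped. MFAP2 was at 38.7, 31.5 and 40.5, 47.7, 32.6 and 47.7 and 45.9, 35.3 and 49.3 CPM in the same order, again higher in each pair (0.23 ± 0.075 (SE) and 0.24 ± 0.07 (SE)).

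The others named by the smallest p at 1 ng/mL were BGN (0.16), DCN (0.27) and MFAP5 (0.16), each higher in 2 of the 3 pairs. At 10 ng/mL they were MFAP4 (0.21), ASPN (0.49) and LTBP4 (0.23). The values of FN1 were 0.09 ± 0.077 (SE) and 0.10 ± 0.084 (SE) at these doses. The lowest adjusted p of a member was that of POSTN at 1 ng/mL. These comparisons share the vehicle libraries. At 1 ng/mL, DCN and POSTN were called higher with every gene of at least 1 count kept, where 24 of 15301 protein-coding genes were called higher and 108 lower. LUM, DCN and POSTN were called higher without replicate 2, of 22 genes higher and 4 lower among 12335, and ELN (0.62) without replicate 3, of 19 higher and 74 lower among 12324. The summed stromal markers were 6517, 6261 and 6415 CPM with vehicle, 6992, 6475 and 6531 CPM at 1 ng/mL and 6462, 6712 and 6729 CPM at 10 ng/mL. Epithelial markers stood out in 2 of these stromal libraries, with sums of 21.3, 398 and 23.4 CPM with vehicle, 19.2, 19.2 and 26.5 CPM at 1 ng/mL and 352, 19.7 and 50.5 CPM at 10 ng/mL. At 10 ng/mL against vehicle the 14 epithelial markers tested had a median log2 fold change of 0.44, of -2.65 without replicate 1 and of 4.30 without replicate 2, where 13 were called higher. The members' medians in the same 3 settings were 0.08, 0.16 and 0.04, all above 0. The part of either marker list was not tested. Between 10 and 1 ng/mL no member was called (0.0244% of 12281 genes), and LTBP3 alone had an unadjusted p under 0.05 (0.20 ± 0.058 (SE), adjusted p = 0.895), beside 3.68% of genes. The value of FN1 was 0.0070. Without replicate 1 THBS2 was called higher (0.44), where 34 of 12312 genes were called higher and 10 lower, and without replicate 3 ELN lower (-0.41), where 55 of 12310 were higher and 9 lower.

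**Figure D5:**
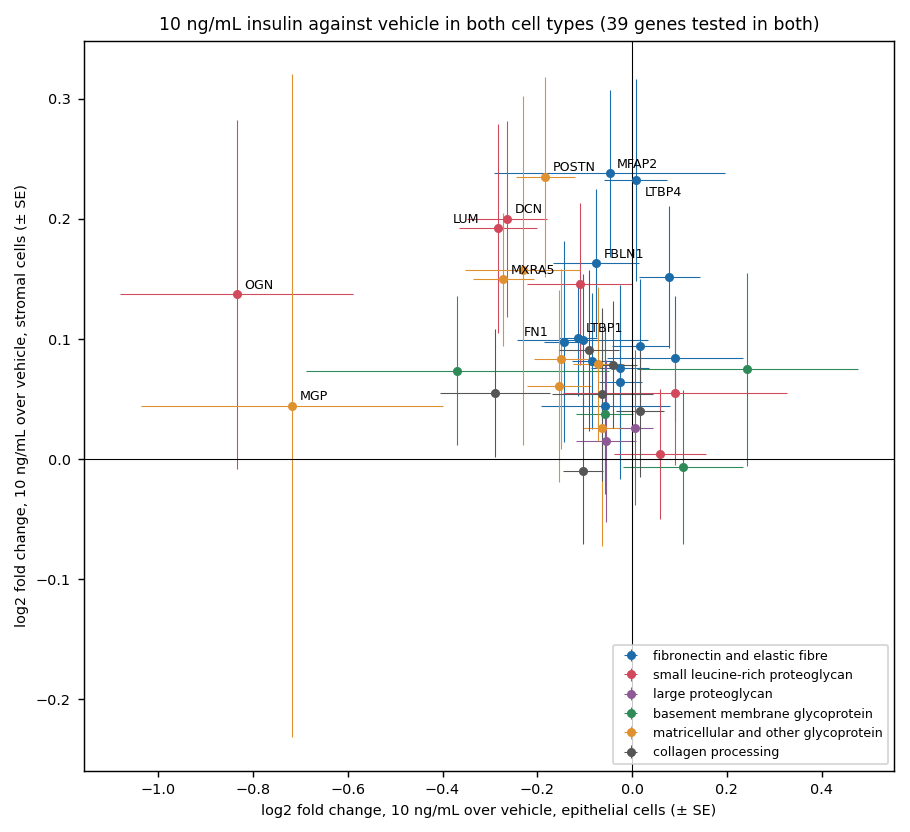
Log2 fold change at 10 ng/mL insulin against vehicle of the 39 genes tested in both cell types, epithelial on the x axis and stromal on the y axis, with bars of 1 SE. Most points lie left of 0 and above 0, all within 1 of 0, and the adjusted p of each was above 0.05.

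The insulin effects at 10 ng/mL were compared between the layers in 1 model. No member was called by edgeR or DESeq2, beside 0% of 13308 genes, and 8 members had an unadjusted p under 0.05, each with a higher value in stromal than in epithelial cells, beside 4.05% of genes in either direction. MXRA5 differed by 0.43 ± 0.093 (SE), adjusted p = 1, FN1 by 0.25 ± 0.058 (SE), adjusted p = 1, PCOLCE by 0.34 ± 0.11 (SE), ASPN by 1.53 ± 0.52 (SE) and OGN by 0.98 ± 0.37 (SE). The median was 0.18, and 38 of 43 members were above 0. The like differences at 1 ng/mL and between 10 and 1 ng/mL, added after the values had been seen, called no member, where 0.659% and 0.728% of genes were called.

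Set against the spread between replicate numbers, the insulin effects were slight. In epithelial cells, the replicate number took a median of 97.5% of the sum of squares of log2(CPM + 1) over the 9 insulin libraries and the dose 0.444%, across 34 members with at least 1 CPM in each library. For 11491 protein-coding genes under the same filter the medians were 72.9% and 5.85%. In stromal cells the members' medians were 86.7% and 4.98% (42 members), against 62.1% and 8.66% for all genes. In 41 of these 42 the replicate number took more than the dose, ASPN being the exception, where this held for 85.4% of 11329 genes. BGN had the largest part between replicate numbers of the 34 members in epithelial cells (99.7%), and SMOC1 the smallest (65.8%). BGN was at 11.1, 3.10 and 49.0 CPM with vehicle, 12.0, 3.86 and 48.4 CPM at 1 ng/mL and 13.3, 3.51 and 47.9 CPM at 10 ng/mL.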

How the data were processed

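Counts per gene were deposited by the authors as tables of whole numbers that were not normalized. Per the study's methods, stranded libraries were read in single-end runs of 75 bases, aligned with Rsubread to the bovine genome of Ensembl release 96 keeping unique alignments, and counted with featureCounts. Tool versions were not given in the sources used here. The authors' tables of fold changes and p-values were not used.

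CPM was the count divided by the library total. Each comparison was fitted on its own libraries with edgeR 4.0.16 (R 4.3.3) by the quasi-likelihood test, with TMM normalization, filterByExpr and the replicate number as a block, as the study's methods paired the samples. P-values were adjusted by Benjamini-Hochberg over all genes tested, and calls and backgrounds were counted among protein-coding genes. Differences between cell types were tested as interaction terms. The SE is the absolute log2 fold change divided by the square root of the F statistic. Scripts were tested on simulated data. DESeq2 1.42.0, other size factors, no filter, no replicate block and leaving out each replicate were alternatives. Intervals of count ratios cover counting error only. No 2 libraries of a group were duplicates.

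The series' description calls the libraries biological replicates and does not say whether they came from different animals. With the replicate number as a block, p-values measure the spread left among these samples once differences between replicate numbers are taken out. They may thus not cover the spread between animals. Samples of the same number deviated together in every treatment comparison within a cell type (lowest correlation of a pair 0.184), but between the cell types the lowest was 0.038.

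The members, gene lists and tests were chosen with earlier results of these data known. Values were given for FN1 throughout, the 4 largest and smallest calls each way with vehicle, the 5 highest and lowest members under glucose, and at most 5 members of smallest p elsewhere; other members named were chosen after their values were seen. The gap between the experiments and the differences between cell types at 1 ng/mL and between 10 and 1 ng/mL insulin were added after seeing the data.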

Additional observations from a re-analysis of the deposited data

How the results depend on the processing

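The count of members called stayed within 1.5 times its value in 142 recomputations and moved further in 15, listed here, and the cause was not tested. Leaving out each replicate gave 24 to 38 members with vehicle, 0 to 36 at 50 mM glucose, 0 to 9 for glucose in epithelial cells, 0 to 7 for 10 ng/mL insulin in epithelial cells, 0 to 3 for 1 ng/mL insulin in stromal cells, 0 to 1 for 10 against 1 ng/mL there, and 0 to 2 for its difference between the cell types. With every gene of at least 1 count kept, 4 members were called for 10 ng/mL insulin in epithelial cells, 2 for 1 ng/mL in stromal cells, 2 for the difference of the 1 ng/mL effects and 1 for that of 10 against 1 ng/mL. The main fits of these differences between the cell types called 0.659% and 0.728% of genes. Their shares in the alternatives are not given here, so these counts are not read as particular to the members. DESeq2 called 2 members for the gap between the experiments. With TMM library sizes the members' mean share of counts was 4.01% in epithelial cells at 50 mM glucose (4.28% by totals) and 9.20% in stromal cells at 5 mM (8.44%).

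Without the replicate block, 35 members were called with vehicle, 39 and 38 at 1 and 10 ng/mL insulin, 32 and 28 at 5 and 50 mM glucose, and 0 in each treatment comparison, so that the pairing moved no count by over 1.5 times.

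Log2 fold changes near 0 changed sign in 19 recomputations. Leaving out replicates for glucose in epithelial cells gave -0.26 to 0.14 for FN1, -0.77 to 0.015 for LTBP2, -0.58 to 0.24 for LTBP3, -0.49 to 0.067 for HSPG2 and -0.32 to 0.038 for THBS1. For glucose in stromal cells it gave -0.21 to 0.12 for FN1, -0.32 to 0.23 for MFAP5, -2.08 to 0.68 for ASPN and -0.31 to 0.85 for MGP. There FN1 was also 0.0057 with DESeq2, 0.0057 with RLE size factors, 0.063 with library totals and 0.0065 with every gene kept, and with library totals MFAP5 was 0.020 and P4HA2 0.0056. FN1 ranged from -0.048 to 0.10 for 10 against 1 ng/mL insulin in stromal cells and from -0.0385 to 0.24 for the difference of the glucose effects.

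With 3 libraries a group and replicate numbers that differ widely, effects of insulin on low members such as OGN and MGP in epithelial cells rest on few counts. ASPN and MFAP4 were too low to test there, and their differences of insulin effects between the layers rest on few epithelial counts.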
